A study of Mus musculus with 10 samples.

Results

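Arteries and veins are told apart at the transcript level by a small set of surface ligands, receptors, gap junction proteins and transcription factors, and 9 of these genes were followed here through blood cell specification. The 5 genes used as arterial markers were Efnb2, Gja4, Gja5, Unc5b and Cxcr4, the 3 used as venous markers were Ephb4, Nr2f2 and Aplnr, and the ligand Apln was kept apart from both classes. They were picked by gene symbol, and all 9 were found among the 15686 genes of the deposited stage matrix and among the 55487 annotated genes counted in each library. Nuclear RNA was sequenced from 5 stages of a mouse in vitro differentiation that begins with HM-1 embryonic stem (ES) cells, with 2 libraries per stage and 10 in all. The stages were undifferentiated ES cells, FLK1+ hemangioblast cells (HB) from embryoid bodies grown for 3 d, and 3 populations sorted after a further 2.5 d of blast culture with 5 ng/ml VEGF and 10 ng/ml IL-6. Those 3 were the first hemogenic endothelium (HE1, KIT+ TIE2+ CD41-), the second hemogenic endothelium (HE2, KIT+ TIE2+ CD41+) and hematopoietic progenitors (HP, KIT+ TIE2- CD41+). All stages came from 1 ES cell line in culture, with no artery or vein and no blood flow, so each population is a sorted pool in which no vessel type was separated.

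Efnb2 encodes ephrin-B2, a membrane ligand of arterial endothelium, and Ephb4 encodes its main receptor, which marks veins, so that the pair meets at the boundary between both vessel types. Notch signaling and SOXF factors favor the arterial program in endothelium, whereas Nr2f2 (COUP-TFII) represses Notch signaling in veins. Within the embryo proper, hemogenic endothelium arises largely in arterial vessels, and arterial genes are switched off there as blood cells leave the endothelial layer.

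The libraries held 24920434 to 58782055 counts each, summed over genes, with a read pair counted for every gene it overlapped. Thus 3 counts, taken as the detection floor, were worth between 0.0510 and 0.120 CPM before scaling. Levels are given as CPM (counts relative to library size), scaled with TMM factors, when 1 gene is followed across stages, and as TPM, which also divides by exon length, when genes are compared with each other. Differences between stages were tested by the quasi-likelihood F test of edgeR over 22596 genes, which included all 9, and a gene was called where its Benjamini-Hochberg adjusted p was under 0.05 and its levels differed 2-fold or more. The endothelial label was checked with 12 pan-endothelial genes, which in HE1 summed to 1576 and 1795 TPM against 276 to 334 TPM in HB and 256 to 319 TPM in HP. Kdr, Tek and Itga2b on these lists encode FLK1, TIE2 and CD41, on which cells were sorted. Libraries of 1 stage also differed from each other in HE1 and HE2, as did those of HP in the levels of the 9 genes. HE1 replicate 2 carried more RNA of 6 pluripotency genes (68.9 against 22.0 TPM summed) and of 10 mural and cardiac genes (1039 against 463 TPM) than HE1 replicate 1. It was lower in 11 of 12 pan-endothelial genes (1576 against 1795 TPM summed), in 8 of 10 blood genes (638 against 997 TPM) and in the 3 venous markers, with a median ratio of 1.53 between replicates 1 and 2 for the last. HE2 replicate 2 carried less RNA of the pan-endothelial genes than HE2 replicate 1 (539 against 943 TPM), while 7 of 10 blood genes were higher in it although their sum was lower (2789 against 3318 TPM), and all 10 mural and cardiac genes were lower in it (257 against 406 TPM). For neighboring stages and for HP against HE1, calls of the 9 genes that were lost without 1 library, and called changes that it moved by over 1.5 times, are given with the results.

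In RefSeq (GRCm38.p6), 8 of the 9 genes had an entry for the promoter, taken as 250 bases before to 50 bases after the annotated start, and 4 are printed because their genes followed different courses: Efnb2 and Ephb4 as the ligand and receptor, Gja4 as the arterial gene with the largest rise into HE1, and Cxcr4 as the gene called lower from HB to HE1. Efnb2 lies at chr8:8661193-8661492 on the minus strand, Ephb4 at chr5:137349859-137350158 on the plus strand, Gja4 at chr4:127313990-127314289 on the minus strand and Cxcr4 at chr1:128592250-128592549 on the minus strand. Each is written 5′ to 3′ along its gene, with capitals marking matches on either strand to the ETS letters CNGGAA and, in Efnb2, to the TEAD letters GGAATG, which overlap its ETS match.
Efnb2: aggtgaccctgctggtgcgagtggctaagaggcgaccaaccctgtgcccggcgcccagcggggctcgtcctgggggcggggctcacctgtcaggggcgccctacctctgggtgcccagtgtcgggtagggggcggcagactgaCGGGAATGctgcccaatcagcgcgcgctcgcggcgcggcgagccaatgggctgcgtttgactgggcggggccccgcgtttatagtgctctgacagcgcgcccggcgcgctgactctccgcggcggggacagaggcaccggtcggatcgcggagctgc
Ephb4: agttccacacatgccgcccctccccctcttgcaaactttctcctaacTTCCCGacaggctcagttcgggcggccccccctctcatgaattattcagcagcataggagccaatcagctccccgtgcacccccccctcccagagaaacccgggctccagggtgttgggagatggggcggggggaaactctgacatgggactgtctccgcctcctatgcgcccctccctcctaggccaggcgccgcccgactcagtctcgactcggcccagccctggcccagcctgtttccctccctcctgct
Gja4: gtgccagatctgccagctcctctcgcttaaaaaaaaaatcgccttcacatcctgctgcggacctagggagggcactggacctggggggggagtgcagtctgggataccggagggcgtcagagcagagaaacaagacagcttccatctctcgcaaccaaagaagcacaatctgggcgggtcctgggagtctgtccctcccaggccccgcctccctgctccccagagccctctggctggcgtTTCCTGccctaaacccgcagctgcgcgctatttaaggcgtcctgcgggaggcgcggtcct
Cxcr4: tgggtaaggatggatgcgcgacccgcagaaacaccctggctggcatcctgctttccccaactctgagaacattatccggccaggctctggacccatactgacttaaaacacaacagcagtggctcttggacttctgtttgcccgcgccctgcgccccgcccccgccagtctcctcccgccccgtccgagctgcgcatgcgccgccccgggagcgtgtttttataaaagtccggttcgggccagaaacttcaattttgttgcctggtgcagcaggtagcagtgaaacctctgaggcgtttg
ETS letters were present in 5 of the 8 promoters (Efnb2, Gja4, Unc5b, Ephb4 and Apln) and in 61.7% of 32851 promoters of the same length. GC boxes (GGGCGG) were present in 7 of the 8 and in 35.7% of all promoters, and TATA boxes (TATAAA) in Cxcr4 and Efnb2 and in 13.6% of all promoters. The TEAD letters GGAATG matched in Efnb2 alone, against 14.7% of all promoters. The RUNX letters TGTGGT matched in Apln alone, against 16.8% of all promoters. Letters searched for RBPJ (TGGGAA) and present in 25.6% of all promoters were not found in these 8 windows. The same held for letters searched for SOX factors (AACAAT, in 10.7% of all promoters). It also held for GATA factors (AGATAA, in 11.2% of all promoters). For AP-1 (TGANTCA, in 7.81% of all promoters) there was likewise no match.

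Across the series, 8 of the 9 genes reached their highest mean level in HE1, whether arterial or venous, and Cxcr4 was highest in HB. Levels in single libraries show how this came about for each gene. The first group holds the ligand and receptor pair. Efnb2 (ENSMUSG00000001300, mm10 chr8:8617434-8661242, minus strand) stood at 37.3 and 38.6 CPM in ES, 199 and 239 CPM in HB, 250.0 and 223 CPM in HE1, 106 and 37.7 CPM in HE2, and 28.6 and 40.0 CPM in HP. Its level was thus already high in HB, where it was 2.53 ± 0.38 (SE) above ES on the log2 scale (edgeR, adjusted p = 0.000462), and the HB and HE1 libraries overlapped (log2 difference 0.11 ± 0.36, edgeR adjusted p = 0.846). HE2 replicate 1 was above the ES libraries and replicate 2 lay among them, and HP overlapped ES. Ephb4 (ENSMUSG00000029710, mm10 chr5:137350109-137378669, plus strand) was measured at 117 and 121 CPM in ES, 144 and 148 CPM in HB, 373 and 244 CPM in HE1, 248 and 156 CPM in HE2, and 94.2 and 97.1 CPM in HP. The receptor was not called between ES and HB (0.30 ± 0.23) and rose into HE1, by 1.08 ± 0.24 on the log2 scale (edgeR, adjusted p = 0.00644). That change is close to the 2-fold limit, and without HE1 replicate 1 it was 0.74 and no longer called. In bulk samples, fewer cells carrying a transcript and less of it per cell cannot be told apart, here and for each gene that follows.

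The connexins, which form the gap junctions of arterial endothelium, were at very different levels. Gja4 (connexin 37, mm10 chr4:127311421-127314039) was at 1.97 and 2.01 CPM in ES, 8.86 and 7.30 CPM in HB, 70.8 and 63.0 CPM in HE1, 41.2 and 15.0 CPM in HE2, and 4.11 and 8.49 CPM in HP. HE1 lay above all other libraries without overlap, 8.29-fold over HB (log2 3.05 ± 0.45, edgeR adjusted p = 0.000739), and no other arterial marker among the 5 was called higher in that step. Gja5 (connexin 40, mm10 chr3:96904693-97077416) had few counts, with 6 and 2 read pairs in the ES libraries, 16 and 9 read pairs in those of HB, 41 and 19 in those of HE1, 19 and 9 in those of HE2, and 6 and 7 in those of HP. These correspond to at most 1.72 CPM, reached in HE1 replicate 1, and the count of ES replicate 2 is under the floor. The order of its stage means was that of Gja4, but of the steps between neighboring levels none was called, and its difference between HE1 and HB was 1.58 ± 0.70 (edgeR, adjusted p = 0.108).

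Unc5b, a guidance receptor of arterial and sprouting endothelium (mm10 chr10:60762593-60831581), was high from the start, with 184 and 188 CPM in ES, 236 and 254 CPM in HB and 434 and 463 CPM in HE1, and then 224 and 63.2 CPM in HE2 and 78.1 and 78.9 CPM in HP. HE1 did not overlap HB, but the difference of 0.87 ± 0.41 was not called (edgeR, adjusted p = 0.126). Cxcr4, the receptor of the chemokine CXCL12 (mm10 chr1:128588199-128592293), stood at 2.71 and 2.32 CPM in ES, 75.3 and 96.5 CPM in HB, 0.421 and 3.01 CPM in HE1, 0.823 and 0.317 CPM in HE2, and 0.890 and 0.540 CPM in HP. It rose 33.9-fold from ES to HB (log2 5.08 ± 0.61, edgeR adjusted p = 0.000102) and fell by 5.60 ± 0.63 on the log2 scale from HB to HE1 (edgeR, adjusted p = 0.000162). The change was -7.66 without HE1 replicate 2 and -4.84 without HE1 replicate 1. Both HE1 libraries were far below HB, and they differed from each other, with 10 counts in replicate 1 and 91 in replicate 2, the library with more pluripotency and mural RNA. Whether that RNA has a part in the Cxcr4 level was not tested.

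Among the venous markers, Nr2f2, a nuclear receptor that sets venous identity (mm10 chr7:70351944-70366735), was at 0.692 and 0.803 CPM in ES, 2.55 and 1.61 CPM in HB, 19.1 and 6.67 CPM in HE1, 6.98 and 3.59 CPM in HE2, and 2.76 and 3.88 CPM in HP. Both HE1 libraries were above both HB libraries, by 6.21-fold in the fit (log2 2.64 ± 0.53, edgeR adjusted p = 0.00429), although HE1 replicate 2, the library with less pan-endothelial and blood RNA, lay within the range of HE2. Without HB replicate 2, the difference was 2.34 and was not called (edgeR, adjusted p = 0.0542), and it was 1.69 without HE1 replicate 1 and 3.21 without HE1 replicate 2. Aplnr, the apelin receptor, found on early mesoderm and on veins (mm10 chr2:85136225-85139923), was at 0.497 and 0.402 CPM in ES, 130 and 149 CPM in HB, 159 and 124 CPM in HE1, 161 and 36.8 CPM in HE2, and 14.5 and 27.3 CPM in HP. Its rise from ES to HB was the largest of the 9 genes, at 8.25 ± 0.76 on the log2 scale (edgeR, adjusted p = 1.95e-05), and HB and HE1 then overlapped (0.02 ± 0.51, edgeR adjusted p = 0.988). Apln, which encodes its ligand apelin (mm10 chrX:48025146-48034853), was at 1.93 and 1.92 CPM in ES, 7.87 and 7.30 CPM in HB, 18.1 and 11.2 CPM in HE1, 13.1 and 6.13 CPM in HE2, and 4.56 and 4.39 CPM in HP. Ligand and receptor were both first above ES in HB, with Apln 3.93-fold higher in HB than in ES (log2 1.97 ± 0.37, edgeR adjusted p = 0.00188), and the HE1 to HB difference of 0.95 ± 0.35 for the ligand was not called (edgeR, adjusted p = 0.0645).

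**Figure D1:**
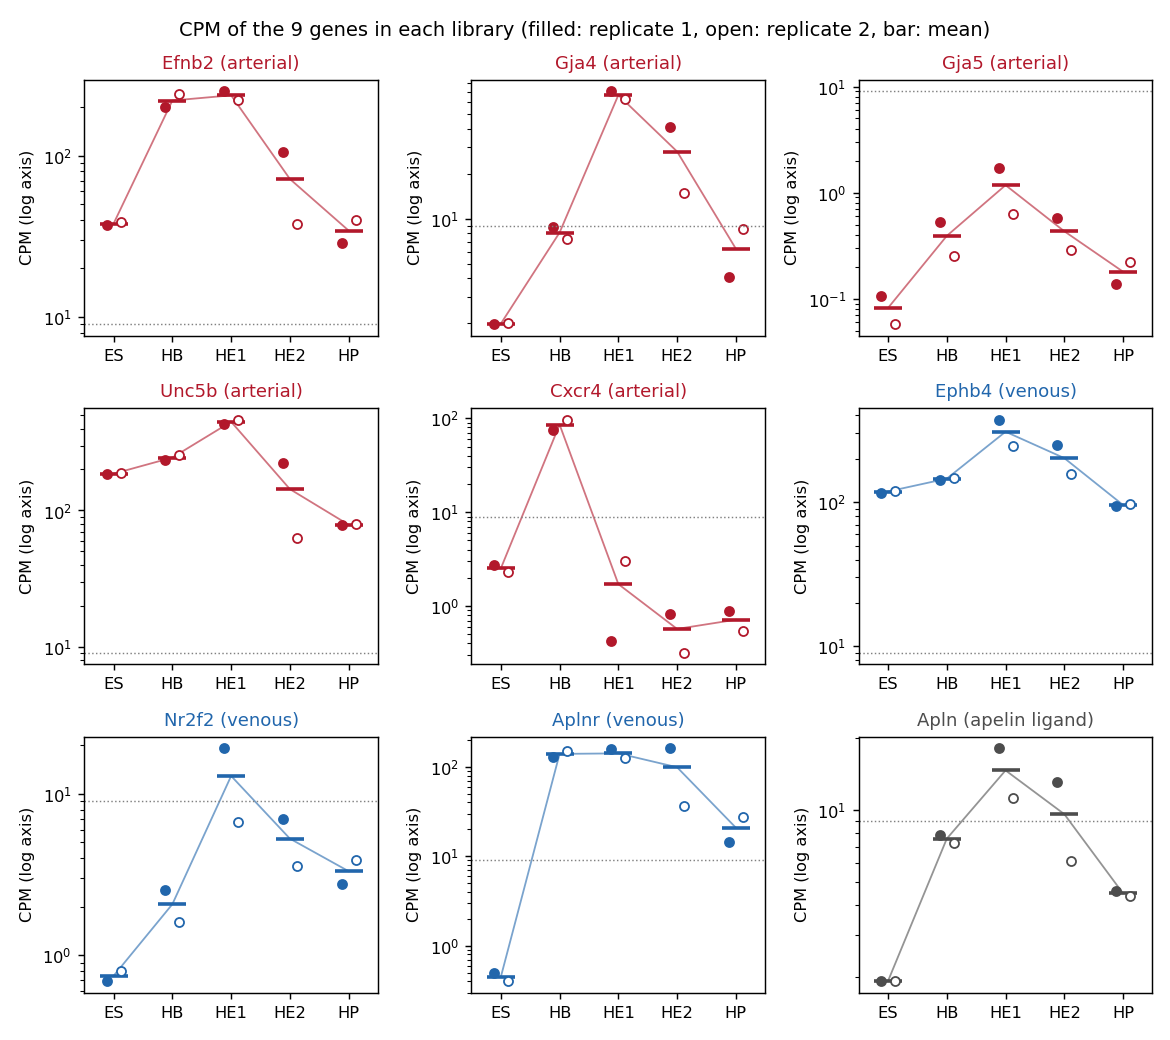
CPM of each of the 9 genes on a log axis (vertical) in ES, HB, HE1, HE2 and HP (horizontal), with replicate 1 as a filled point, replicate 2 as an open point, the mean of both as a bar joined by a line, and a dotted line at 9 CPM, the level required of genes in the search for like patterns. Arterial genes are red, venous genes blue and Apln grey, and 8 of the 9 means peak in HE1, whereas Cxcr4 peaks in HB at 75.3 and 96.5 CPM.

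Counted over the 9 genes, the step from ES to HB raised 5 (Efnb2, Gja4, Cxcr4, Aplnr and Apln) and lowered 0, where 28.8% of all tested genes were called in either direction, 11.5% higher and 17.3% lower. From HB to HE1, 3 were called higher (Gja4, Ephb4 and Nr2f2) and 1 lower (Cxcr4), against 20.9% of all tested genes called, 12.7% higher and 8.19% lower. The genes called higher thus comprised 1 of 5 arterial and 2 of 3 venous markers. The median log2 change of the 9 was 0.95, against 0.04 over all tested genes. Leaving out HE1 replicate 2, the library with more pluripotency and mural RNA, brought the number called higher in HE1 to 5, with Gja5 and Apln added, while the number over all tested genes went from 2872 to 2261.

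From HE1 to HE2, the CD41+ stage, 2 of the 9 genes fell, both arterial: Efnb2 by 1.72 ± 0.37 (edgeR, adjusted p = 0.0197) and Unc5b by 1.64 ± 0.42 on the log2 scale (edgeR, adjusted p = 0.0331). Without HE2 replicate 1 the changes were -2.65 for Efnb2 and -2.83 for Unc5b, and without HE2 replicate 2 they were -1.16 and -1.0. Over all tested genes 8.65% were called in this step, 3.26% higher and 5.39% lower. The other 7 genes were not called by edgeR, with fitted differences from -1.62 for Cxcr4 to -0.52 for Aplnr. All 9 fitted differences were below 0. Both limma-voom and DESeq2 also called Gja4 lower, which made 3 of the 9 with each. Over all tested genes, these methods called 1329 and 1795 lower. The HE2 libraries disagreed, since replicate 2 was lower than replicate 1 for 9 of 9 genes, with a median ratio of 2.59 between replicates 1 and 2 against 1.03 over all tested genes. Aplnr was at the HE1 level in replicate 1 (161 CPM) and at 36.8 CPM in replicate 2, whereas Unc5b in replicate 2 (63.2 CPM) lay below both HP libraries. Without HE2 replicate 1, 5 genes were called lower in HE2 than in HE1, and without HE1 replicate 2 the number was 0. The number of all tested genes called lower moved the same way, from 1217 to 2180 without HE2 replicate 1 and to 226 without HE1 replicate 2. Unc5b also lost its call without either HB library, which left 1. Without HE2 replicate 2, in contrast, the number of all tested genes called lower fell, while Efnb2 and Unc5b kept their calls. The lower pan-endothelial RNA of HE2 replicate 2 moved with the levels of the 9 genes, and its part in them was not tested.

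**Figure D2:**
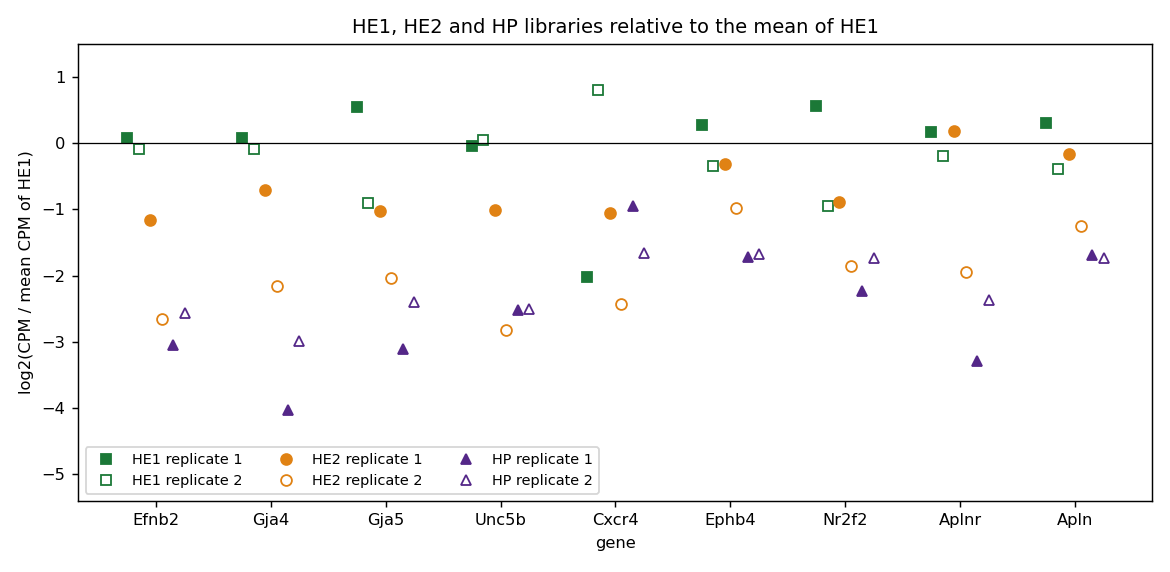
The log2 ratio of CPM in each HE1, HE2 and HP library to the mean of the HE1 libraries (vertical) for the 9 genes (horizontal), with squares for HE1, circles for HE2 and triangles for HP, filled for replicate 1 and open for replicate 2. The open circle of HE2 replicate 2 lies below the filled circle of replicate 1 for all 9 genes.

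Between HE2 and HP, 0 of the 9 genes and 0.0% of all tested genes were called by edgeR. At an unadjusted p under 0.05, 5 of the 9 and 670 higher and 1113 lower of all tested genes passed edgeR's test, and limma-voom called 0 and DESeq2 2 of the 9 (Gja4 and Ephb4, both lower in HP). Over all tested genes, limma-voom called 35 higher and 27 lower, and DESeq2 108 and 193. Fitted differences were below 0 for 8 of the 9, from -2.25 for Aplnr to -0.67 for Nr2f2, and above 0 for Cxcr4 (0.35 ± 0.74). Without HE2 replicate 2, 6 of the 9 were called lower in HP, in a fit that called 471 of all tested genes lower and 47 higher. The longer step from HE1 to HP showed the decline outside the replicate spread: 8 of the 9 genes fell, 4 of 5 arterial markers, 3 of 3 venous markers and Apln, where 16.5% of all tested genes were called, 5.35% higher and 11.2% lower. Gja4 had the largest drop and fell by 3.42 ± 0.46 on the log2 scale (edgeR, adjusted p = 0.000786), followed by Efnb2 (-2.79 ± 0.39) and Aplnr (-2.76 ± 0.55). Ephb4 fell by 1.69 ± 0.24 (edgeR, adjusted p = 0.00101), the smallest SE of the 9, while Cxcr4, already low in HE1, differed by -1.27 ± 0.66 (edgeR, adjusted p = 0.181). The median change of the 9 was -2.51, against -0.02 over all tested genes. The HP libraries also differed, with 7 of the 9 genes higher in replicate 2 and a median ratio of 1.40 between replicates 2 and 1, against 0.971 over all tested genes. Without HP replicate 1 the number called lower was 4 of the 9 and 1145 of all tested genes, against 2525 with it (the 4 being Efnb2, Gja4, Unc5b and Ephb4), so that Ephb4 was then the only venous marker called, with Aplnr at -2.37 (edgeR, adjusted p = 0.0663) and Apln at -1.73 (edgeR, adjusted p = 0.0580). Gja5 and Nr2f2 lost their calls there and also without HP replicate 2 or HE1 replicate 1. The changes of -2.70 for Gja5 and -1.96 for Nr2f2 were -1.81 and -1.01 without HE1 replicate 1, and without HP replicate 2 that of Gja4 was -4.03.

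**Figure D3:**
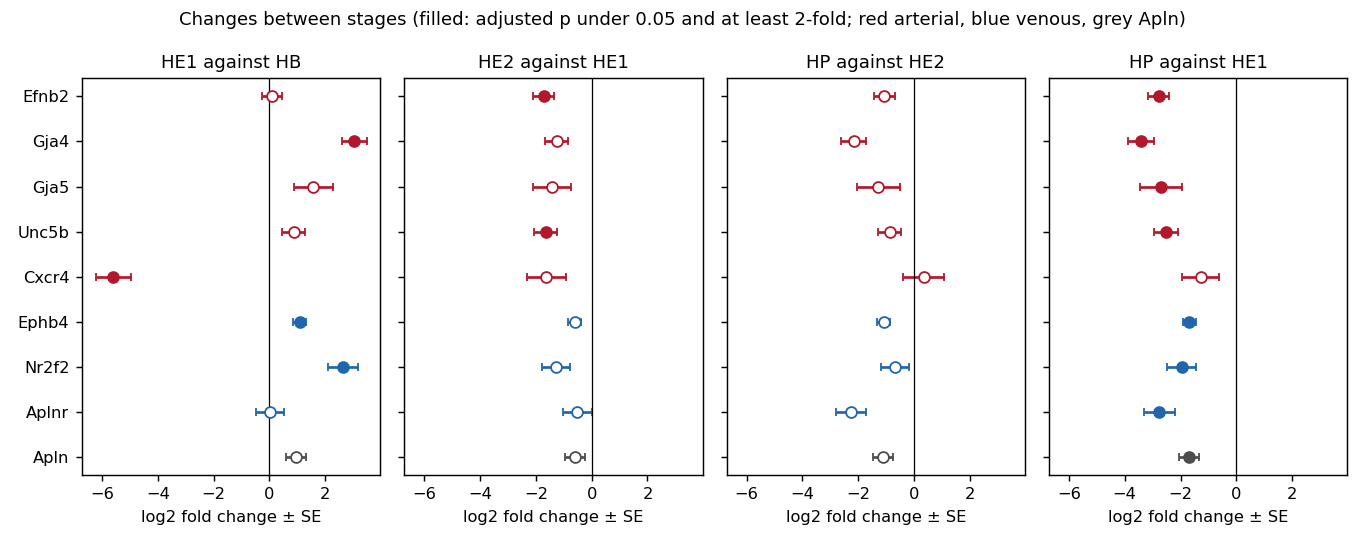
Log2 fold change with its SE (horizontal) of the 9 genes (vertical) in 4 comparisons of stages, filled where called at an adjusted p under 0.05 and at least 2-fold, with arterial genes red, venous genes blue and Apln grey. Nearly all points in HP against HE1 are filled and to the left of 0, with Cxcr4 open.

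The genes did not all return to their starting level. In HP against ES, 38.7% of all tested genes were called (16.7% higher and 21.9% lower), and of the 9 genes 4 were higher in HP (Gja4, Nr2f2, Aplnr and Apln) and 2 lower (Unc5b and Cxcr4). Aplnr remained the most raised, at 5.50 ± 0.71 on the log2 scale (edgeR, adjusted p = 0.000106), and Unc5b was lower by 1.25 ± 0.41 (edgeR, adjusted p = 0.0271). In HP against HB, 21.8% of all tested genes (10.1% higher and 11.6% lower) and 4 of the 9 were called, all 4 lower (Efnb2, Unc5b, Cxcr4 and Aplnr). The comparisons of HP share their HP libraries.

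Compared per exon length, the genes fell into 3 tiers in HE1. Unc5b (97.3 and 136 TPM) and Ephb4 (113 and 96.6 TPM) were highest, followed by Gja4 (59.0 and 68.6 TPM), Aplnr (60.3 and 61.7 TPM) and Efnb2 (51.2 and 59.6 TPM), and far below by Apln (8.06 and 6.51 TPM), Nr2f2 (3.11 and 1.42 TPM), Cxcr4 (0.327 and 3.05 TPM) and Gja5 (0.421 and 0.20 TPM). Unc5b overlapped Ephb4, and Gja4 overlapped Aplnr and Efnb2. HE1 thus held transcripts of both vessel classes in bulk, and whether single cells carried both was not measured. The ratio of Efnb2 to Ephb4 TPM was 0.216 and 0.217 for the ES libraries and 0.941 and 1.09 for those of HB. It was 0.454 and 0.617 for HE1, 0.288 and 0.163 for HE2, and 0.205 and 0.279 for HP. It was highest in HB, the only stage with a library above 1, and the HE1 libraries were below both HB libraries and above all HE2 and HP libraries. The mean log2 ratio was 0.94 lower in HE1 than in HB, with a two-sided exact permutation p = 0.333, the smallest that this test allows with 2 against 2 libraries. For Unc5b to Ephb4 the ratio was 1.22 and 1.27 for HB, 0.862 and 1.41 for HE1, 0.668 and 0.30 for HE2, and 0.615 and 0.603 for HP, so that HE1 and HB overlapped and the later stages were lower. The ratio of Gja4 to Nr2f2 TPM, a connexin set against the venous transcription factor, was 17.8 and 23.3 for HB, 18.9 and 48.3 for HE1, 30.2 and 21.3 for HE2, and 7.61 and 11.2 for HP. HP was lowest for this ratio without overlap, whereas HB, HE1 and HE2 overlapped.

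**Figure D4:**
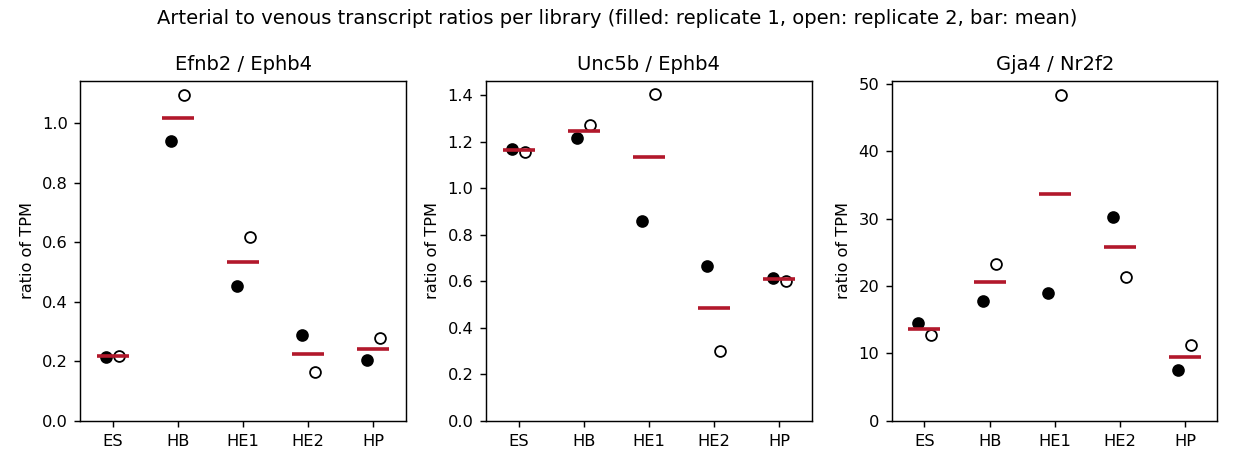
Ratio of TPM (vertical) of Efnb2 to Ephb4, Unc5b to Ephb4 and Gja4 to Nr2f2 in ES, HB, HE1, HE2 and HP (horizontal), with replicate 1 filled, replicate 2 open and a red bar at the mean. The Efnb2 to Ephb4 ratio peaks in HB at 0.941 and 1.09, and the HE1 replicates are spread widest for Gja4 to Nr2f2.

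As a summary over classes, the mean log2(TPM + 0.1) of the 5 arterial markers minus that of the 3 venous markers was 1.07 for ES, 0.22 for HB, -1.09 for HE1, -1.61 for HE2 and -1.18 for HP. The HE1 libraries were at -1.61 and -0.58, a range that holds both HP libraries (-1.05 and -1.31) and 1 HE2 library (-1.59, with the other at -1.63), so that HE1 overlapped HE2 and spanned HP. Both HE2 libraries lay below both HP libraries. This course depended on Cxcr4: without it, an alternative chosen after seeing the data, the differences were 1.16, -0.40, -0.27, -0.89 and -0.73, and the HB and HE1 libraries then overlapped. In that version the HE1 libraries (-0.50 and -0.044) lay above those of HP (-0.70 and -0.75), and these above those of HE2 (-0.85 and -0.94), without overlap, and the same order without overlap was found with the median over the genes. With CPM in place of TPM, HB was at -0.32.

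The wider pathways were read from lists of related genes. Of 18 other arterial and Notch genes, 9 rose from HB to HE1 and 2 fell, with a median of 1.44, where 12.7% of all tested genes were higher and 8.19% lower with a median of 0.04. The number that rose was 3 without HB replicate 2. From HE1 to HP 15 fell, with a median of -3.35, where 11.2% of all tested genes were lower with a median of -0.02. These shares of all tested genes also apply to the lists that follow. The largest rise was in Bmx, a kinase of arterial endothelium, at 0 and 0.028 CPM in HB, under the floor, and 0.883 and 0.727 CPM in HE1. Outside HE1 it was at most 0.213 CPM, so it passed the filter on low counts only through HE1. No weight is put on its rise, which is 1 of the 9. Next were Mecom (3.19 ± 0.53, 8.10 and 6.82 CPM in HB, 81.6 and 54.5 CPM in HE1), Sema3g (3.04 ± 0.62) and the receptor Notch4 (2.81 ± 0.73). The 2 that fell were the Notch target genes Hey1 (-2.35 ± 0.23) and Hes1 (-2.08 ± 0.23), Hey1 from 58.5 and 72.0 CPM in HB to 12.3 and 13.4 CPM in HE1. In HP the largest falls were in Foxc2 (-5.0 ± 0.89) and the SOXF factors Sox17 (-4.18 ± 0.68) and Sox7 (-4.08 ± 0.71), with Sema3g at -4.11 ± 0.66. Of 10 other venous and lymphatic genes, 5 rose into HE1 and 0 fell (median 1.38), and 5 fell from HE1 to HP (median -1.46). Without HB replicate 1 or 2, those that rose numbered 3 or 2. Lyve1, a hyaluronan receptor of lymphatic endothelium, rose by 5.37 ± 1.07 but was at 10.9 and 0.991 CPM in the HE1 libraries, and Emcn, a sialomucin of venous and capillary endothelium, rose by 5.15 ± 0.75 and later fell by 4.05 ± 0.69. Flt4, the VEGF-C receptor, was at 81.0 and 81.2 CPM in HB, 226 and 240 CPM in HE1 and 24.2 and 45.6 CPM in HP.

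Of 7 further genes of the ephrin system, Efnb1, Efnb3, Ephb1, Ephb2, Ephb3, Ephb6 and the EphA receptor Epha4, 0 rose and 2 fell from HB to HE1, Efnb3 (-2.17 ± 0.29) and Ephb3 (-1.73 ± 0.30). From HE1 to HP 4 of them fell, or 2 without HP replicate 2. Ephb3, which can also bind ephrin-B2, was at 37.4 and 37.0 CPM in HB against 8.03 and 14.3 CPM in HE1. Among 13 ligands, decoys and paralogues of the 9 genes, 4 rose and 4 fell into HE1, where 12.7% of all tested genes were higher and 8.19% lower. Without HB replicate 1 or 2, those that rose numbered 2 or 1. Ackr3, which encodes a scavenging receptor for CXCL12, fell with Cxcr4, from 44.6 and 60.0 CPM in HB to 2.40 and 4.56 CPM in HE1 (-3.90 ± 0.38), while the ligand Cxcl12 rose by 2.38 ± 0.56, from 4.13 and 1.63 to 13.5 and 16.4 CPM. Robo4 and Flrt2, both binding partners of UNC5B, rose by 3.82 ± 0.88 and 4.64 ± 0.40. The UNC5B paralogues diverged, since Unc5a fell into HE1 (-2.20 ± 0.45), as did Unc5d (from 2.81 and 2.54 CPM to 0.126 and 0.033 CPM), and Unc5c rose by 1.27 ± 0.28 and was at 165 and 173 CPM in HP. Gja1 (connexin 43), the widely expressed relative of Gja4 and Gja5, fell by 1.37 ± 0.16 into HE1 and was at 93.8 and 77.1 CPM in HP.

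Genes of other cell types also differed between the stages, beside the same shares of all tested genes (12.7% higher and 8.19% lower from HB to HE1, 5.35% higher and 11.2% lower from HE1 to HP). Of the 12 pan-endothelial genes, 10 rose from HB to HE1 (Pecam1 by 4.10 ± 0.25 and Cdh5 by 3.50 ± 0.40) and 11 fell from HE1 to HP (Cldn5 by 4.03 ± 0.79). Their median log2 change was 2.44 from HB to HE1, against 0.95 for the 9 genes. From HE1 to HP it was -2.54, near the -2.51 of the 9 genes, so the fall was not particular to arterial and venous genes. Of 10 blood genes, 10 rose from HE1 to HE2 (3.26% of all tested genes) and 10 rose from HE1 to HP, with summed levels of 638 to 997 TPM in HE1, 2789 to 3318 TPM in HE2 and 4468 to 6730 TPM in HP. Of 10 mural and cardiac genes, 6 rose and 2 fell from HB to HE1, and the list summed to 69.0 to 83.9 TPM in HB, 463 to 1039 TPM in HE1, 257 to 406 TPM in HE2 and 266 to 461 TPM in HP. The largest of these rises was in Acta2, smooth muscle actin (7.82 ± 0.45, 403 and 569 CPM in HE1 and 529 and 249 CPM in HP). The 6 pluripotency genes were called lower in HE2 than in HE1, where 5.39% of all tested genes were lower, and also lower in HP than in HE1. Pou5f1 was at 2.82 and 26.3 CPM in the HE1 libraries. These calls depended on single libraries: in HE2 against HE1 the number was 0 without HE2 replicate 2, 1 without HE1 replicate 2 and 2 without HE2 replicate 1 or either HB library, and in HP against HE1 it was 2 without HE1 replicate 2 or either HP library. The part of any of these lists in the levels of the arterial and venous genes was not tested.

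The genes whose levels were most alike were looked up by Pearson's r of log2 CPM over the 10 libraries, which share 5 stages in pairs, so r is a description. The search covered 12234 genes, or 12235 for Gja5, that reached 9 CPM in at least 1 stage. Cxcr4 was most like Ackr3 (r = 0.989), followed by Sp8 and the WNT target Axin2. Gja4 was most like Gdpd5 (0.992), Fbn1 and Rasip1, Efnb2 most like Apcdd1 (0.988), Sema4c and Ctsh, and Unc5b most like Amotl1 (0.989), Dzip1 and Zfp423. For Gja5 the nearest were Man2a1 (0.970), Bmpr2 and Wwtr1, and for Ephb4 Rcan1 (0.980), Coro2b and Cyp2j6. Nr2f2 was nearest to Mon2 (0.992), Asah2 and Dab2, the last from the venous list. Aplnr was nearest to Igfbp4 (0.990), Gem and Hand2, and Apln to Rtkn (0.996), Plcg1 and Pea15a. Of each set of 3, 0 to 2 were found again by Spearman's rho and 0 or 1 without the ES libraries, so these names are not stable. Among the 9 genes themselves, Gja4 was close to Apln (r = 0.93), Nr2f2 (0.93) and Gja5 (0.92), across the arterial and venous classes, and Cxcr4 was apart from the others, with r from -0.41 (Nr2f2) to 0.52 (Efnb2).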

How the data were processed

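Read counts per gene were deposited for each of the 10 nuclear RNA libraries. Per the file headers and the study's methods, the authors removed ribosomal reads, trimmed the reads by quality, aligned with HISAT2 2.2.1 to mm10, and counted read pairs on exons of Ensembl release 102 genes with featureCounts 2.0.1, stranded and with pairs assigned to every gene they overlapped. Nuclear RNA holds unspliced transcripts, of which exon counting keeps the exonic reads only. The authors also deposited a matrix with 1 expression score per stage and gene, close to CPM, which served here only to find the genes and as an alternative for their levels. The 9 genes and the further gene lists were chosen with earlier results of these data known.

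The counts were fitted in 1 model over all 10 libraries with stage as the only term (edgeR 4.0.16 in R 4.3.3, TMM factors, filterByExpr, 22596 genes, 5 residual degrees of freedom in the spread). limma-voom 3.58.1, DESeq2 1.42.0, other scalings, no filter, 4 libraries alone, a replicate block and leaving out each library were alternatives. CPM used TMM factors, TPM used exon length, and log2 CPM a prior count of 2. On counts simulated for HE1 against HB (22596 genes), edgeR recovered 61.5% of 200 genes changed by 2 on the log2 scale, with 5 false calls. Apart from the 200 changes, each simulated gene had 1 mean and 1 spread over all 10 libraries. The differences between the real HE1 libraries are not in the simulation, so its figures may not hold for the real comparison. Named genes were all 9, genes drawn from the called genes of each list with the largest changes in HE1 against HB and in HP against HE1, at most 4 in each direction, and the 3 genes most like each of the 9. Kdr, Tek and Itga2b, named as sort antigens, Efnb1, Ephb6 and Epha4, named to complete their list, and Pou5f1 lie outside this rule and were named after their values were seen. The libraries of a stage are separate samples by their labels, n = 2. The p-values rest on the spread between such libraries pooled over all 5 stages, not on that of the 2 compared stages alone. SE is the standard error of the fit. The exon models of the 9 genes overlap no other exon on the same strand. On the opposite strand, exons of Gja5 overlap Gpr89, which had up to 2073 counts in a library. Exons of Ephb4 overlap Zan (up to 49 counts) and those of Nr2f2 overlap B130024G19Rik (up to 5 counts). Whether reads from the opposite strand add to these genes was not tested.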

Additional observations from a re-analysis of the deposited data

How the results depend on the processing

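Of 765 refitted log2 changes of the 9 genes (45 changes, 17 alternatives each), 699 kept their direction and side of the threshold, 15 lost the call, 39 gained one and 12 changed sign. The sign changes came from leaving out 1 library, apart from Aplnr in HE1 against HB, which was -0.011 with the replicate block. Over the libraries left out in turn, Efnb2 in HE1 against HB ran from -0.071 (without HB replicate 1) to 0.24, Unc5b in HP against HE2 from -1.51 to 0.31 (without HE2 replicate 1), and Cxcr4 from -2.47 to 0.44 in HE2 against HE1 and from -2.03 to 0.79 in HP against HE1 (both highest without HE1 replicate 2). Cxcr4 in HP against HE2 ran from -0.17 (without HE2 replicate 2) to 1.20, Aplnr in HE1 against HB from -0.17 (without HE1 replicate 1) to 0.19, and Aplnr in HE2 against HE1 from -1.95 to 0.19 (without HE2 replicate 2).

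Without the filter on low counts, 5 of the 9 were lower in HE2 against HE1 and 5 lower in HP against HE2; DESeq2 gave 2 for the latter, and the 4 libraries alone gave 1 for the former. With 1 library left out at a time, where the lone library of a stage is assumed to vary like the other stages, the genes called higher numbered 5 to 7 in HB against ES and 2 to 5 in HE1 against HB, and those called lower 0 to 5 in HE2 against HE1, 0 to 6 in HP against HE2 and 4 to 8 in HP against HE1. Over all genes, HP against HE2 gave 35 higher and 27 lower by limma-voom, 108 and 193 by DESeq2, 145 and 389 without the filter, 19 and 35 in the 4 libraries alone, and 0 to 47 and 0 to 471 with 1 library left out. For HE2 against HE1, 1217 were lower in the main model, 2864 without the filter and 505 in the 4 libraries alone, and leaving out 1 library gave 106 to 2618 lower and 314 to 1265 higher. The same omissions gave 1515 to 3135 higher and 1230 to 2012 lower in HE1 against HB, and 756 to 1658 higher and 1145 to 3402 lower in HP against HE1. With the replicate block, 766 genes were lower in HE2 against HE1, and the number of the 9 called in each step from HB onward was that of the unblocked model. Deviations of same-numbered libraries correlated between -0.32 and 0.21 over pairs of stages. Other differences between libraries can hide a pairing, so whether the replicate numbers pair the samples is not known. The cause of these changes was not tested.

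The class difference moved with its definition: with CPM it was 0.63 for ES, -0.32 for HB, -2.24 for HE2 and -1.86 for HP. With the median over the genes it was 2.94, 0.021, -0.14, -1.17 and -0.61 over the 5 stages from ES to HP, and without Cxcr4 it was 1.16, -0.40, -0.27, -0.89 and -0.73. Gja5 rests on 2 to 41 read pairs per library. The authors' deposited stage values were 0.756 (Cxcr4 in HE1) to 1.19 (Gja5 in ES) times the mean CPM used here.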
